A study of Homo sapiens with 24 samples.

Results

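The genes described are 8 pericentral genes of the liver other than P450 genes: GLUL, OAT, RHBG, SLC1A2, SLC13A3, TBX3, LECT2 and AHR. They were found through the RefSeq transcript of each array probe, which gave 12 probes for 8 of the 8 genes among 50683 probes in all. RNA of HepaRG, a human hepatocellular carcinoma line that can behave as a liver progenitor, was measured on 24 one-colour arrays in 8 conditions with 3 replicates each. Cells were left untransfected, electroporated with 80 pmol of control siRNA or of β-catenin siRNA, or left untransfected and given 300 ng/ml of mouse FZD8_CRD, the soluble Wnt-binding domain of a Frizzled receptor. Each of these was cultured without and with 200 ng/ml of mouse Wnt3a, and treatments lasted 72 h in serum-free medium with albumin. The methods of the study describe its cultures as independent experiments.

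In the liver, hepatocytes around the central vein receive Wnt ligands, and β-catenin with TCF/LEF factors keeps a pericentral set of genes on. Glutamine synthetase is the classical marker of these cells and captures ammonia that the urea cycle of upstream hepatocytes has left. Other genes of the zone move glutamate, ammonium or dicarboxylates, recycle ornithine, or sense foreign compounds.

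Levels are log2 signals with the array's own 75th percentile set to 0. A gene was tested where the scanner software marked a probe well above background on all 3 arrays of a condition, and 5 of the 8 genes passed: GLUL, RHBG, SLC13A3, TBX3 and AHR. OAT, which converts ornithine, and LECT2, a secreted liver protein, each stayed not well above background on 24 of 24 arrays. SLC1A2, a glutamate transporter, was well above background on 1 of 24 arrays. These 3 genes have no fold here.

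The siRNA target was read first. CTNNB1, which encodes β-catenin, read 3.35, 3.39 and 3.52 with control siRNA and 0.26, 0.36 and 0.52 with β-catenin siRNA. In the presence of Wnt3a it read 3.39, 3.62 and 3.70 against 0.33, 0.53 and 0.79. CTNNB1 was lower by 8.21-fold without Wnt3a (adjusted p = 1.46e-09) and by 8.12-fold with it (adjusted p = 9.65e-10), with no overlap. These are values of its brighter probe, and the dimmer changed by -3.53 and -3.66 on the log2 scale. All 10 hepatocyte markers passed the filter, with ALB the highest, as did 4 of 5 biliary and progenitor markers, with KRT19 the highest, and 6 of 6 mesenchymal markers, with ACTA2 the highest. EPCAM did not pass.

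The third FZD8_CRD array without Wnt3a stood apart from its label. Over 24608 genes its mean correlation was 0.147 with the other arrays of its condition and 0.674 with the FZD8_CRD arrays given Wnt3a. COL1A1, a fibrillar collagen, read -0.40, -0.24 and 1.38 with FZD8_CRD and 2.96, 3.01 and 2.73 with FZD8_CRD and Wnt3a. TCF7, a Wnt target, read -2.95, -2.71 and -1.49 against -0.67, -0.62 and -0.91. For both genes the third array lay between the conditions. RNF43, another Wnt target, read -0.36, -0.42 and -0.23 against 0.51, 0.39 and 0.52, so there it stayed near its own condition. Calls, counts and medians of the comparisons that use this array are also given without it where they moved, a choice made after seeing the data. In all 5 of 24 arrays were closer to another condition than to their own: this array, the 3 untransfected arrays given Wnt3a, and the third β-catenin siRNA array given Wnt3a.

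**Figure D1:**
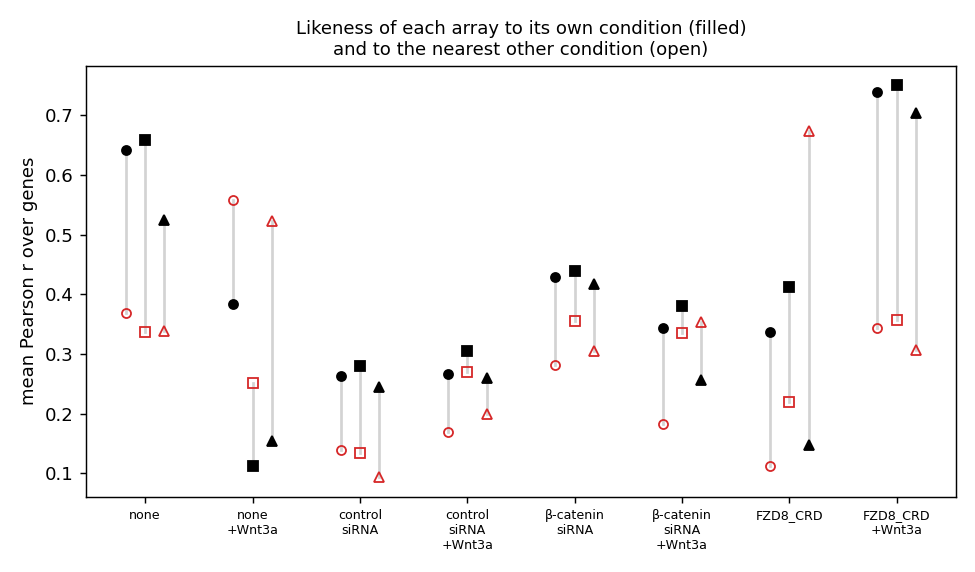
Mean Pearson correlation over genes (vertical axis) of each array with the other arrays of its own condition (filled) and with the nearest other condition (open), after each gene was centred. Circles, squares and triangles are replicates 1, 2 and 3, and the third FZD8_CRD array sits at 0.147 for its own condition and 0.674 for FZD8_CRD with Wnt3a.

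GLUL, glutamine synthetase, makes glutamine from glutamate and ammonia. GLUL read 4.72, 4.74 and 4.71 in untransfected cells and 4.68, 4.39 and 4.52 with Wnt3a. It read 4.76, 4.84 and 4.76 with control siRNA and 4.62, 4.57 and 4.37 with control siRNA and Wnt3a. Without Wnt3a the untransfected and control siRNA arrays spanned only a narrow range. With β-catenin siRNA GLUL read 4.36, 4.29 and 4.44, and 3.97, 4.19 and 4.19 when Wnt3a was added. With FZD8_CRD it read 4.17, 4.03 and 3.51, and 3.10, 3.15 and 3.30 when Wnt3a was added. The arrays with FZD8_CRD and Wnt3a were the lowest 3 of 24 for GLUL.

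From highest to lowest mean the order for GLUL was control siRNA, untransfected, untransfected with Wnt3a, control siRNA with Wnt3a, β-catenin siRNA, β-catenin siRNA with Wnt3a, FZD8_CRD, and FZD8_CRD with Wnt3a. Arrays of neighbours overlapped between the third and the fourth, the fourth and the fifth, and the sixth and the seventh of these. The means spanned 1.6, and the median SD within a condition was 0.12. Over the 8 condition means, the genes most like GLUL among 15999 were BRICD5 (r = 0.991) and HIGD2A (r = 0.989). Here and for the other members, these are the highest of 15999 correlations over only 8 points. High values can arise among unrelated genes, so they are only a description.

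**Figure D2:**
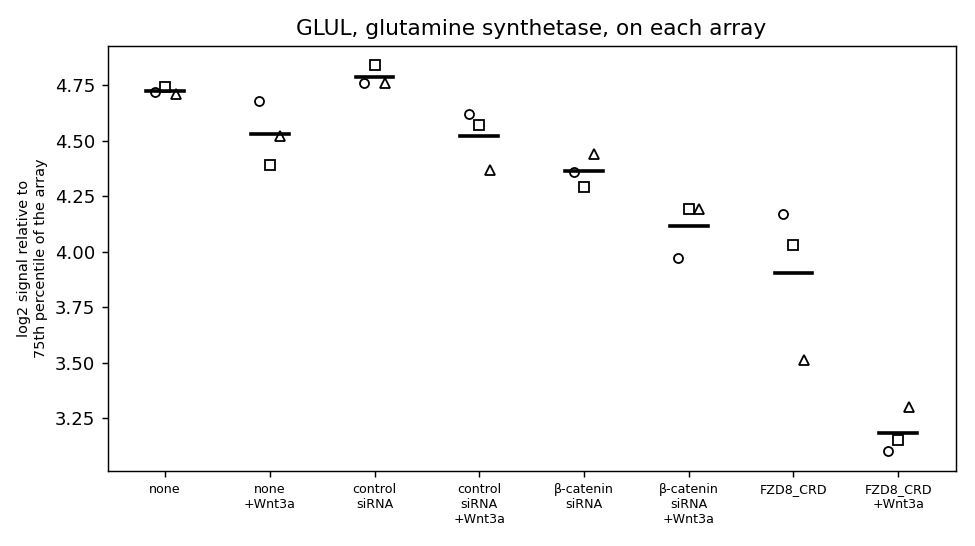
GLUL on each of the 24 arrays (vertical axis, log2 signal with the 75th percentile of the array at 0), with circles, squares and triangles for replicates 1, 2 and 3 and bars for the mean of 3. The arrays with FZD8_CRD and Wnt3a, from 3.10 to 3.30, lie below all others.

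RHBG, an ammonium transporter, was read from a dim probe that was well above background on 24 of 24 arrays. A second RHBG probe for the same transcript was so on 1 of 24 and was left out. RHBG read -3.27, -3.70 and -4.21 in untransfected cells and -3.97, -4.70 and -4.49 with Wnt3a. With control siRNA it read -3.85, -4.70 and -5.07, and -4.28, -4.78 and -3.05 with Wnt3a. The last of these is the highest RHBG value on the 24 arrays. With β-catenin siRNA RHBG read -4.23, -5.02 and -4.58, and -4.48, -4.96 and -4.58 with Wnt3a. With FZD8_CRD it read -4.61, -5.46 and -5.27, and -4.42, -4.83 and -5.06 with Wnt3a. The means spanned 1.39, against a median SD of 0.42. All neighbours in the order of the 8 means overlapped, and the genes most like RHBG were PSORS1C2 (r = 0.968) and TEX13B (r = 0.967).

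SLC13A3 carries dicarboxylates such as succinate and has 2 kept probes that match different transcripts. The brighter probe of SLC13A3 read -2.42, -2.22 and -2.47 in untransfected cells and -2.42, -2.08 and -2.36 with Wnt3a. With control siRNA it read -2.49, -2.62 and -2.53, and -2.54, -2.37 and -2.13 with Wnt3a. Without Wnt3a the control siRNA arrays lay below the 3 untransfected arrays. With β-catenin siRNA the brighter probe read -2.66, -2.82 and -2.57, and -2.88, -2.71 and -2.71 with Wnt3a. With FZD8_CRD it read -2.69, -2.52 and -2.79, and -2.95, -2.42 and -2.73 with Wnt3a. The dimmer probe of SLC13A3 read -4.78, -4.95 and -5.06 in untransfected cells, -3.88, -4.37 and -4.52 with control siRNA, and -3.80, -4.13 and -4.47 with control siRNA and Wnt3a. It read -4.37, -4.76 and -4.73 with β-catenin siRNA, -4.34, -4.72 and -4.69 when Wnt3a was added, and -4.07, -4.46 and -3.94 with FZD8_CRD. By mean it was lowest in untransfected cells, where the brighter probe was the third highest of the 8. From no transfection to control siRNA the brighter probe changed by -0.18 (adjusted p = 0.431) and the dimmer rose by 0.67 (adjusted p = 0.022). The 8 means of the brighter probe spanned 0.48, against a median SD of 0.14. In their order only untransfected and control siRNA, as neighbours, did not overlap. C8orf34 (r = 0.983) and DPT (r = 0.981) were most like SLC13A3.

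TBX3 is a T-box transcriptional repressor. TBX3 read -0.66, -0.39 and -0.31 in untransfected cells and 0.27, 0.18 and -0.41 with Wnt3a. With control siRNA it read 0.19, 0.09 and 0.02, and 0.49, 0.07 and -0.05 with Wnt3a. The untransfected arrays without Wnt3a lay below all 3 control siRNA arrays. With β-catenin siRNA TBX3 read -0.09, -0.04 and -0.37, and 0.20, -0.02 and -0.20 with Wnt3a. With FZD8_CRD it read -0.35, -0.36 and 0.11, and 0.12, 0.09 and -0.19 with Wnt3a. The means spanned 0.62, against a median SD of 0.19. The dimmer TBX3 probe read -3.47, -2.97 and -2.59 in untransfected cells and -2.67, -2.58 and -2.34 with Wnt3a. It read -3.01, -2.70 and -1.58 with FZD8_CRD and -1.99, -1.95 and -1.40 with FZD8_CRD and Wnt3a. The arrays with FZD8_CRD and Wnt3a had the highest mean of this probe. It read -2.69, -2.91 and -2.02 with control siRNA and -2.31, -2.56 and -2.11 with control siRNA and Wnt3a. With β-catenin siRNA it read -3.18, -2.91 and -2.46, and -2.63, -2.49 and -2.25 when Wnt3a was added. With FZD8_CRD and Wnt3a against Wnt3a alone this dimmer probe changed by 0.75 (adjusted p = 0.0633) and the brighter by 0.00. All neighbours of the brighter probe overlapped, and ZNF213 (r = 0.972) and EHMT2 (r = 0.964) were most like TBX3.

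AHR is the aryl hydrocarbon receptor, a transcription factor that senses planar foreign compounds. AHR read 1.83, 1.79 and 1.77 in untransfected cells and 1.95, 1.90 and 2.17 with Wnt3a. With control siRNA it read 1.82, 1.95 and 1.85, and 1.79, 1.89 and 1.83 with Wnt3a. The control siRNA arrays overlapped with and without Wnt3a. With β-catenin siRNA AHR read 2.14, 1.94 and 2.07, and 1.65, 1.81 and 1.78 with Wnt3a. With FZD8_CRD it read 2.09, 2.17 and 1.33, and 1.61, 1.55 and 1.69 with Wnt3a. The value of 1.33, the lowest for AHR, is that of the third FZD8_CRD array. The means spanned 0.44, against a median SD of 0.08. The dimmer AHR probe read 0.78, 0.66 and 0.78 in untransfected cells, 0.94, 0.98 and 0.88 with control siRNA, and 0.78, 0.98 and 0.86 with β-catenin siRNA. With FZD8_CRD it read 0.71, 0.82 and 0.64, so on this probe the third array lay close to the others. In the presence of Wnt3a the dimmer AHR probe read 1.05, 0.78 and 0.56 with control siRNA and 0.65, 0.64 and 0.36 with β-catenin siRNA. All neighbours of the brighter probe overlapped, and SLC47A1 (r = 0.879) and ANO7 (r = 0.862) were most like AHR.

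**Figure D3:**
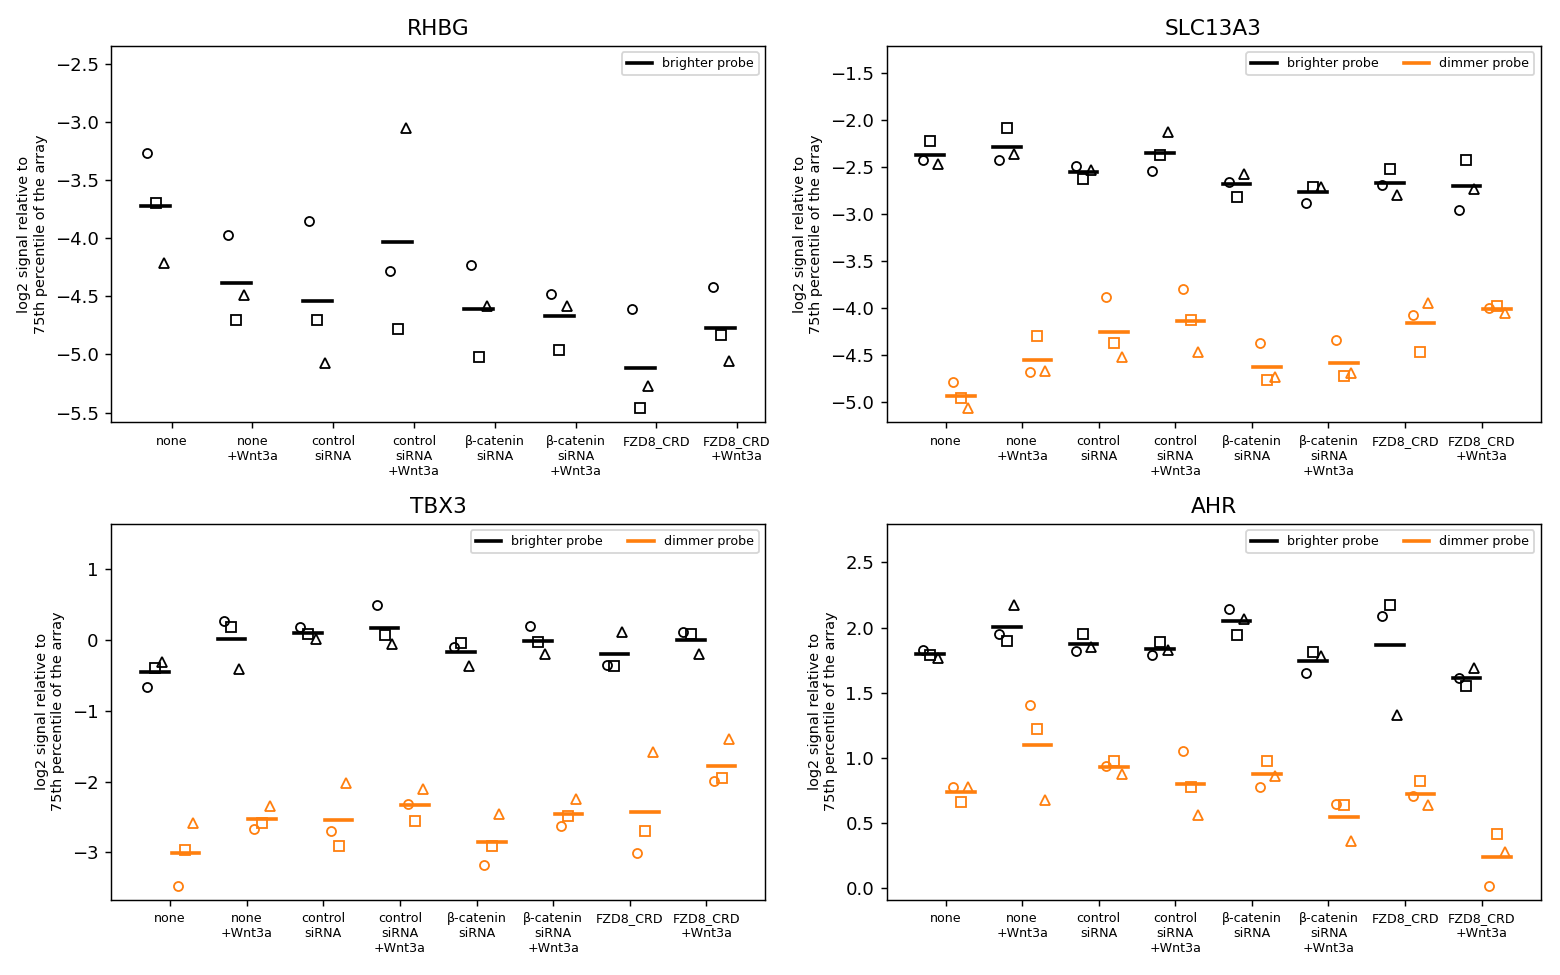
RHBG, SLC13A3, TBX3 and AHR on each array (vertical axes, log2 signal with the 75th percentile of the array at 0), with circles, squares and triangles for replicates 1, 2 and 3, bars for means of 3, black for the brighter and orange for the dimmer kept probe. With FZD8_CRD and Wnt3a against Wnt3a alone the SLC13A3 probes changed by -0.41 and 0.54.

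Over the 8 condition means, GLUL correlated with RHBG at 0.632, with SLC13A3 at 0.625, with AHR at 0.602 and with TBX3 at -0.0841, as a description over conditions that share arrays. Each gene was read from its brightest probe, and the dimmer probes have no correlation here. By mean, the dimmer SLC13A3 and TBX3 probes were highest with FZD8_CRD and Wnt3a, where GLUL and the dimmer AHR probe were lowest.

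β-catenin siRNA was set against control siRNA to ask which of the genes need β-catenin. GLUL fell by 0.43 on the log2 scale (SE 0.12), or 1.34-fold, and was lower on 3 of 3 slides (adjusted p = 0.0272). It was 1 of 5 members called, against 10.5% of all 24647 genes. In the presence of Wnt3a GLUL fell by 0.41 (SE 0.12), or 1.33-fold, on 3 of 3 slides (adjusted p = 0.0336), 1 of 5 members against 10.6% of all genes. Without Wnt3a the GLUL call was lost when any of the 6 arrays was left out (change from -0.46 to -0.39, adjusted p up to 0.0965), and with Wnt3a it was kept in 1 of 6 such fits (from -0.48 to -0.34, up to 0.14). Scaled to spike-in probes, the GLUL changes were -0.33 (adjusted p = 1) and -0.61 (adjusted p = 0.379). SLC13A3 changed by -0.42 with Wnt3a present and was not called (adjusted p = 0.0679), but was called with the replicate block (adjusted p = 0.0301). Its dimmer probe changed by -0.45 (adjusted p = 0.201).

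Wnt3a was set against no Wnt3a in each background to ask which genes respond to the ligand. GLUL changed by -0.19 in untransfected cells, with a 95% interval from -0.44 to 0.06 (adjusted p = 0.396). With control siRNA it changed by -0.26, from -0.52 to -0.01 (adjusted p = 0.32), and with β-catenin siRNA by -0.25, from -0.50 to 0.01 (adjusted p = 0.493). In these backgrounds limma called 0 of 5 members, against 5.42%, 2.02% and 0.0406% of all genes, and 1 of 5 had an unadjusted p under 0.05 in each. TBX3 changed by 0.47 in untransfected cells (adjusted p = 0.127), and by 0.68 without the third array given Wnt3a (adjusted p = 0.0153). Without all arrays of replicate 3 TBX3 changed by 0.75 (adjusted p = 0.00259), and limma called 6253 genes in place of 1335. The Wnt3a change of the members was also compared between β-catenin siRNA and control siRNA, where GLUL differed by 0.02 (adjusted p = 1). There limma called 0 of 5 members, against 0.0162% of all genes, and 0 of 5 had an unadjusted p under 0.05.

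In FZD8_CRD cells GLUL fell by 0.72 with Wnt3a (SE 0.12), or 1.65-fold, on 3 of 3 slides (adjusted p = 0.00168). This was 1 of 5 members, against 8.24% of all genes, and the call was kept in 7 of 11 other settings (change from -0.97 to -0.54, adjusted p up to 0.391). With all arrays AHR changed by -0.25 (adjusted p = 0.363), with 2 of 3 slides below 0, and its dimmer probe by -0.48 (adjusted p = 0.0534). Without the third FZD8_CRD array GLUL fell by 0.91 (adjusted p = 1.05e-06) and AHR fell by 0.51 (adjusted p = 0.000164), 2 of 5 members against 19.8% of all genes. On the dimmer AHR probe the change was -0.53 (adjusted p = 0.0345), and the TBX3 probes changed by 0.36 (adjusted p = 0.208) and 1.08 (adjusted p = 0.00912). The difference in the Wnt3a change between FZD8_CRD and untreated cells was -0.53 for GLUL (adjusted p = 0.185) and -0.46 for AHR (adjusted p = 0.341). With all arrays limma called 0 of 5 members for this difference, against 0.073% of all genes, and 2 of 5 had an unadjusted p under 0.05. Without the third FZD8_CRD array the difference was -0.72 for GLUL (adjusted p = 0.00119) and -0.72 for AHR (adjusted p = 0.000388), 2 of 5 members against 7.77% of all genes, and -0.89 on the dimmer AHR probe (adjusted p = 0.021).

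FZD8_CRD was set against no FZD8_CRD to ask which genes change when this Wnt-binding domain is added. Whether it bound the Wnt ligands here was not tested. In the presence of Wnt3a TCF7 read -0.92, -0.60 and -1.14 without FZD8_CRD and -0.67, -0.62 and -0.91 with it. RNF43 read 1.62, 1.72 and 1.76 against 0.51, 0.39 and 0.52. Without added Wnt3a GLUL fell by 0.82 (SE 0.12), or 1.76-fold, on 3 of 3 slides (adjusted p = 2.17e-05). RHBG fell by 1.39 (SE 0.39), or 2.62-fold, with no overlap (adjusted p = 0.00695). The RHBG call was kept in 9 of 10 other settings, with a change from -1.78 with spike-in scaling to -0.47 with normexp background correction (adjusted p up to 0.0999, without replicate 2). These were 2 of 5 members, against 41.9% of all genes, so the members' share is near that of all genes. Without the third FZD8_CRD array GLUL fell by 0.62 (adjusted p = 3.65e-05), RHBG fell by 1.31 (adjusted p = 0.0242) and AHR rose by 0.33 (adjusted p = 0.0033), 3 of 5 members against 40.6% of all genes. This AHR call rests on the brighter probe: without that array the dimmer changed by 0.02 (adjusted p = 0.936). With all arrays the AHR change was 0.06 (adjusted p = 0.749) on the brighter and -0.02 (adjusted p = 0.927) on the dimmer probe.

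In the presence of Wnt3a GLUL fell by 1.35 with FZD8_CRD (SE 0.12), or 2.54-fold, on 3 of 3 slides (adjusted p = 3.42e-07). The call was kept in 11 of 11 other settings (from -1.44 to -1.23) and in 6 of 6 fits that each left out 1 array (from -1.42 to -1.27). AHR fell by 0.39 (adjusted p = 0.0348), and its dimmer probe, at 1.41, 1.22 and 0.68 against 0.02, 0.42 and 0.28, fell by 0.87 (adjusted p = 0.000151). The AHR call was kept in 6 of 11 other settings (adjusted p up to 0.368) and in 2 of 6 fits without 1 array. The brighter SLC13A3 probe fell by 0.41 (adjusted p = 0.0272), while the dimmer, at -4.68, -4.29 and -4.67 against -4.00, -3.98 and -4.05, rose by 0.54 (adjusted p = 0.0449). Without Wnt3a these SLC13A3 probes changed by -0.29 (adjusted p = 0.102) and 0.77 (adjusted p = 0.00468), so the gene is given no direction. The SLC13A3 call was kept in 3 of 11 other settings (change from -0.50 to 0.06). Counting the brighter probe, 3 of 5 members were lower, against 37.1% of all genes called in either direction. RHBG changed by -0.38 (adjusted p = 0.479). Of all genes, 2.59% had a lower change than GLUL here, and 9.40% did without Wnt3a.

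**Figure D4:**
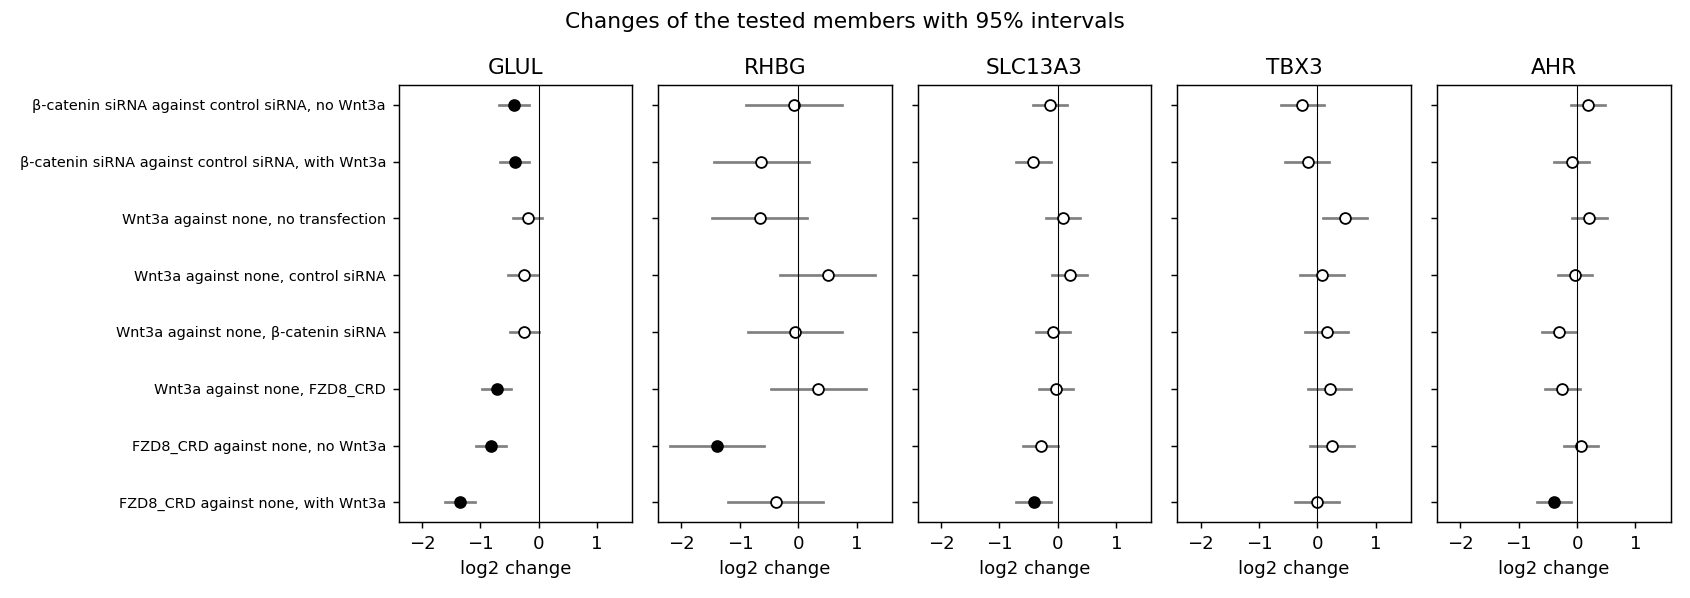
Log2 changes (horizontal axes) of the 5 tested genes in 8 comparisons, with 95% intervals from limma as lines and filled points for an adjusted p under 0.05. GLUL is called in 5 of 8 and lies below 0 in 8 of 8, from -1.35 to -0.19.

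Electroporation with control siRNA was set against no transfection. TBX3 rose by 0.55 (SE 0.18) on 3 of 3 slides (adjusted p = 0.0314), 1 of 5 members against 22.4% of all genes. The call was kept in 6 of 11 other settings (change from 0.27, with spike-in scaling, to 0.66, adjusted p up to 0.54) and in 1 of 6 fits without 1 array (adjusted p up to 0.152), and the dimmer TBX3 probe changed by 0.47 (adjusted p = 0.326). GLUL changed by 0.07 (adjusted p = 0.769). With Wnt3a limma called 0 of 5 members, against 8.86% of all genes, and 0 of 5 had an unadjusted p under 0.05. The FZD8_CRD, Wnt3a and control siRNA comparisons in untransfected cells share the untreated arrays, and those with Wnt3a share the untransfected Wnt3a arrays.

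The balance of higher and lower genes depended on the scaling. Without Wnt3a FZD8_CRD gave 4888 higher and 5428 lower genes, and with spike-in scaling, an alternative chosen after seeing the data, 555 and 6833. It gave 5016 and 4996 without the third FZD8_CRD array. With Wnt3a it gave 4502 and 4654, against 660 and 1672. GLUL was lower under both scalings in both comparisons. Control siRNA without Wnt3a gave 3061 higher and 2466 lower, against 129 and 1486, and β-catenin siRNA with Wnt3a gave 986 and 1622, against 41 and 609. Wnt3a gave 771 higher and 564 lower in untransfected cells, against 25 and 267, 262 and 235 with control siRNA, against 57 and 1, and 1118 and 912 with FZD8_CRD, against 164 and 82, or 2189 and 2703 without the third FZD8_CRD array. Spike-in scaling thus moved the share of higher genes by over 10 percentage points in 8 of 12 comparisons. For the difference in the Wnt3a change with FZD8_CRD the 5 higher and 13 lower genes became 14 and 2 with spike-ins, 13 and 13 with quantile normalization, 1 and 10 with normexp and 2 and 3 with the deposited values, or 786 and 1129 without the third FZD8_CRD array. For that with β-catenin siRNA the 1 higher and 3 lower became 0 and 1 with normexp, and for Wnt3a with β-catenin siRNA the 9 and 1 became 5 and 3 with the deposited values.

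Hepatocyte markers moved with FZD8_CRD as well. Without Wnt3a 10 of 10 fell (median -1.89, against -0.08 for all genes), and with it 7 of 10 fell (median -1.08), against 41.9% and 37.1% of all genes called. Without the third FZD8_CRD array 10 of 10 fell without Wnt3a (median -1.85). ALB fell by 1.81 without Wnt3a (adjusted p = 0.000107) and by 1.07 with it (adjusted p = 0.0102). The summed hepatocyte markers read 10.59, 10.18 and 9.68 in untransfected cells, 8.59, 8.05 and 8.59 with FZD8_CRD, 9.89, 8.72 and 9.92 with Wnt3a, and 8.68, 8.66 and 8.65 with both. With control siRNA 9 of 10 also fell without Wnt3a (median -1.41, against 22.4% of all genes called), and their sums read 8.76, 8.66 and 8.70. In the presence of Wnt3a 6 of 10 fell with control siRNA (median -1.24, against 8.86% of all genes called). Fewer hepatocyte-like cells and less RNA per cell cannot be told apart in bulk RNA, and the part of these markers in the change of GLUL was not tested. With β-catenin siRNA the hepatocyte sums read 9.35, 8.98 and 9.30, and limma called 0 of 10 (median 0.64, against 10.5% of all genes called), with 1 of 10 at an unadjusted p under 0.05. With Wnt3a they read 8.24, 8.69 and 9.05 against 8.17, 7.71 and 8.16 with control siRNA. There 1 of 10, ALB, rose (median 0.49), a share near the 10.6% of all genes.

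Mesenchymal markers are given beside the same comparisons. Their sums read 3.62, 3.56 and 3.43 in untransfected cells, 3.74, 3.82 and 4.14 with FZD8_CRD, 3.98, 4.43 and 4.03 with Wnt3a, and 4.88, 4.81 and 4.71 with both. With FZD8_CRD 2 of 6, ACTA2 and VIM, rose and COL3A1 fell (median 0.18, but -0.21 with spike-in scaling and 0.03 without the third array, where the calls were 2 higher and 1 lower), and in the presence of Wnt3a 3 of 6, with TAGLN, rose and COL3A1 fell (median 0.55), next to 41.9% and 37.1% of all genes called. The sums read 3.64, 3.70 and 3.51 with control siRNA and 3.46, 3.51 and 3.36 with β-catenin siRNA, and 4, 4.15 and 4.09 against 3.60, 3.57 and 3.64 with Wnt3a. With β-catenin siRNA 3 of 6, TAGLN, VIM and PDGFRB, fell (median -0.52), and in the presence of Wnt3a 4 of 6, COL1A1, COL3A1, TAGLN and VIM, fell (median -1.02), next to 10.5% and 10.6% of all genes. The part of these markers in the change of GLUL was not tested.

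Markers also moved with Wnt3a in FZD8_CRD cells, where GLUL fell and 8.24% of all genes were called, or 19.8% without the third FZD8_CRD array. Of 6 mesenchymal markers 4, COL1A1, ACTA2, TAGLN and VIM, rose (median 0.69, or 0.83 with 4 higher without the third array, and 0.59 with 2 higher with spike-in scaling). Of 10 hepatocyte markers APOA1 and TTR rose, and APOB and CEBPA fell (median 0.07, but -0.03 with spike-in scaling), or 3 rose and 3 fell without that array (median 0.22). Of 4 biliary and progenitor markers limma called 0 (median 0.18), with 1 at an unadjusted p under 0.05, or 1 higher and 1 lower without that array (median 0.31). Their part in the change of GLUL was not tested.

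Biliary and progenitor markers were mixed. With FZD8_CRD KRT19 rose and SOX9 fell (median of 4 -0.28), against 41.9% of all genes called. Without the third array neither was called, against 40.6%: KRT19 changed by 0.24 (adjusted p = 0.0631) and SOX9 by -0.32 (adjusted p = 0.146). In the presence of Wnt3a KRT19 rose and SOX9 and CD24 fell with FZD8_CRD (median -0.32), against 37.1%. With β-catenin siRNA limma called 0 of 4 (median -0.19), against 10.5%, with 1 of 4 at an unadjusted p under 0.05. In the presence of Wnt3a SOX9 and CD24 fell with β-catenin siRNA (median -0.37), against 10.6%. Summed, they read 8.37, 8.46 and 8.21 in untransfected cells, 8.43, 8.50 and 8.80 with FZD8_CRD, 8.38, 8.54 and 8.47 with Wnt3a, and 8.82, 8.84 and 8.73 with both. KRT19 was the highest of these on each array, and its part in the change of GLUL was not tested. The sums read 8.47, 8.44 and 8.37 with control siRNA and 8.41, 8.47 and 8.34 with β-catenin siRNA, and 8.40, 8.51 and 8.49 against 8.30, 8.31 and 8.38 with Wnt3a.

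Lists of related genes were read beside the members. Of all genes 10.5% and 10.6% were called with β-catenin siRNA without and with Wnt3a, 5.42% with Wnt3a in untransfected cells, and 41.9% and 37.1% with FZD8_CRD without and with Wnt3a. Of 9 tested Wnt feedback targets, 4 rose with Wnt3a in untransfected cells (median 0.30, against 0.02 for all genes, but -0.02 against -0.37 with spike-in scaling, where 1 of 9 rose), among them TCF7 at 3.23-fold (adjusted p = 0.000953), LEF1 at 2.19-fold (adjusted p = 0.000323) and RNF43 at 1.67-fold (adjusted p = 0.00061). NKD1, also among the 9, passed the filter only through control siRNA with Wnt3a (mean -5.41). It averaged -5.83 in untransfected cells with Wnt3a and lay at the floor of -6.13 in the other conditions. Its changes are not measured folds, but they count in the medians of this list. The median of 0.30 above, and that of -0.71 below, lie at or near NKD1's own changes, which the floor partly sets. With β-catenin siRNA and Wnt3a 6 of 9 fell and 1, BAMBI, rose (median -0.71, against -0.02), and without Wnt3a 4 fell and BAMBI rose (median -0.09, against -0.03). NKD1 lay at the floor with β-catenin siRNA, so its change in the presence of Wnt3a is only a bound. With FZD8_CRD LEF1 and SP5 rose, and AXIN2, RNF43 and APCDD1 fell (median 0.00, against -0.08, and -0.27 with spike-in scaling, -0.07 with normexp and -0.17 with the deposited values). Without Wnt3a NKD1 lay at the floor with and without FZD8_CRD, so it counts as 0.00 in the first of these medians. Without the third FZD8_CRD array 2 of the 9 rose and 3 fell (median -0.25), and APCDD1 changed by -0.88 (adjusted p = 0.00481) in place of -1.53. In the presence of Wnt3a AXIN2, RNF43 and APCDD1 fell with FZD8_CRD (median -0.06, against -0.08). Of 13 genes for glutamine, ornithine and proline, 3 fell with β-catenin siRNA without Wnt3a (median -0.11, against -0.03) and 2 with it (median 0.00). With FZD8_CRD 3 rose and 4 fell (median -0.01), and 1 rose and 5 fell in the presence of Wnt3a (median -0.08). Leaving out the third array, 4 rose and 5 fell without Wnt3a (median 0.08), against 40.6% of all genes called. With Wnt3a in FZD8_CRD cells 2 rose and 5 fell (median -0.26, against 8.24% of all genes called), or 2 rose and 7 fell without the third array (median -0.30, against 19.8%). With spike-in scaling 1 of these 13 was called, and it was lower (median -0.36). Wnt3a in untransfected cells gave 2 higher and 2 lower (median -0.05, against 5.42% of all genes called), and with control siRNA 1 higher and 3 lower (median -0.12, or 0.04 with spike-in scaling, where these calls were lost, against 2.02%). In cells with β-catenin siRNA Wnt3a gave 0 of 13 called by limma (median -0.06, against 0.0406%), with 4 of 13 at an unadjusted p under 0.05. Against control siRNA, with β-catenin siRNA SLC38A3, a glutamine transporter, was lower by 2.51-fold (adjusted p = 1.95e-05), and by 5.15-fold in the presence of Wnt3a (adjusted p = 9.21e-09). With FZD8_CRD it was lower by 1.5-fold (adjusted p = 0.00496) and 1.54-fold (adjusted p = 0.00405). Of 9 tested pericentral P450 and nuclear receptor genes, 3 rose and 1 fell with β-catenin siRNA without Wnt3a (median 0.55), and 6 fell with FZD8_CRD (median -1.90, or -2.11 with 6 of 9 lower without the third array), or 4 in the presence of Wnt3a (median -0.85). In the presence of Wnt3a 3 rose and 1 fell with β-catenin siRNA as well (median 0.23). Against no transfection, 5 of these 9 fell with control siRNA (median -1.22), or 2 in the presence of Wnt3a (median -0.85). Of all genes 22.4% and 8.86% were called with control siRNA. CYP1A1, a P450 that AHR induces, rose 15.1-fold with β-catenin siRNA (adjusted p = 4.64e-06). It is also 1 of 2 genes that rose among 6 tested AHR pathway genes, with TIPARP (median -0.11). With FZD8_CRD 3 of these 6 rose and 1 fell (median 0.21, but -0.18 with spike-in scaling, and 0.28 with 3 higher and 1 lower without the third array). Of 8 tested periportal genes 0 were called by limma with β-catenin siRNA (median 0.18), with 1 of 8 at an unadjusted p under 0.05, and 6 fell with FZD8_CRD (median -1.07, or -1.08 with 5 lower and 1, GLS2, higher without the third array), or 3 in the presence of Wnt3a (median -0.53). With control siRNA 1 of these 8 rose and 4 fell against no transfection (median -0.61). Of 11 tested paralogs of the members, 1 fell with β-catenin siRNA, SLC1A4 at 1.84-fold (adjusted p = 0.0298), a share near the 10.5% of all genes.

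Promoters are shown for GLUL and AHR, which both fell with FZD8_CRD in the presence of Wnt3a, and for LECT2, the only one of the 5 members with a window to hold the letters searched. Windows are the 250 bases before a RefSeq start in GRCh38.p14, found for 5 of 8 members, with 6 windows in all, 5′ to 3′ on the strand of the gene. The letters searched on both strands were CTTTGAA and CTTTGAT, a core of TCF/LEF motifs, and matches are in capitals.
GLUL promoter, chr1:182391791-182392040, minus strand: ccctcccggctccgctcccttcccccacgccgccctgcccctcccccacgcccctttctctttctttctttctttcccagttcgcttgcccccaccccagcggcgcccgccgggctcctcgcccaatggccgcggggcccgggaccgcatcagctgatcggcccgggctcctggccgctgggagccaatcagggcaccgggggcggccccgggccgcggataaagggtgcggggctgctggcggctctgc
AHR promoter, chr7:17298402-17298651, plus strand: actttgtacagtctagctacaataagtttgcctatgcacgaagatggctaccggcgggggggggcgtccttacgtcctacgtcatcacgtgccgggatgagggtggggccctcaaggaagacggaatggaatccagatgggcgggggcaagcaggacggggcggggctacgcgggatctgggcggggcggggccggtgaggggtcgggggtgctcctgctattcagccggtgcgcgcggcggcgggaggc
LECT2 promoter, chr5:135954984-135955233, minus strand: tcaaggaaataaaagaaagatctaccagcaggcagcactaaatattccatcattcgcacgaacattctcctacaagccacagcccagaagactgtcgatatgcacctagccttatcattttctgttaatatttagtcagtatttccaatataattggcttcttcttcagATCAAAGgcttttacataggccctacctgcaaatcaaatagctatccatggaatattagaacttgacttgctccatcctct
The LECT2 match, ATCAAAG, begins 81 bases before the start, and 2086 of 35116 windows (5.94%) held the letters. GLUL has a second window, from another RefSeq start, at chr1:182391342-182391591, which is not shown. No match was found in either window of GLUL or in that of AHR, which says only that these letters are not in these windows.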

How the data were processed

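The spot intensity values deposited by the authors are background-subtracted signals from Agilent Feature Extraction (10.7.1.1 per the file headers, 10.7.3.1 per the labels). The authors also deposited log2 values of 25443 probes, which their methods describe as filtered on flags and scaled between arrays by the 75th percentile in GeneSpring. Centring is not described there, and the log base was read from the values. Set against the scanner values as differences from each probe's median, they correlated at 0.939 to 0.997 with slopes of 0.864 to 1.01, and column medians were -0.05 to 0.019. They served as an alternative. Here signals were divided by each array's 75th percentile, floored at -6.13 (log2), and averaged over the spots of a probe, without outlier spots. Of 50683 probes, 28174 were named through RefSeq transcripts. Of these 50683, 31065 passed the filter on background and gave 24647 genes, each read from its brightest probe. limma 3.58.1 in R 4.3.3 fitted 8 condition means to 24 arrays (eBayes with trend), two-sided, with Benjamini-Hochberg adjustment over all genes, called at an adjusted p under 0.05. This fit has no term for the replicate number, which is also the slide. The alternative called replicate block adds that term. The steps were tested on simulated data. Named genes are the members, CTNNB1, called genes of the lists, EPCAM and NKD1, and the 2 genes most correlated with each tested member. COL1A1, TCF7 and RNF43 on single arrays were chosen after their values were seen. The members and lists were chosen with earlier results of these data known. The number of arrays limits the precision. Each of 3 slides held 1 replicate number, with each condition at a fixed position, so position and condition cannot be told apart.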

Additional observations from a re-analysis of the deposited data

Results flagged for a closer look

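The Wnt3a change of AHR was positive on 3 of 3 slides in untransfected cells and negative on 3 of 3 with control siRNA, a difference of 0.25 that was not tested. With β-catenin siRNA it was also negative on 3 of 3 slides, a difference of 0.52 that was not tested. These are values of the brighter AHR probe: the dimmer was positive on 2 of 3 slides in untransfected cells, and negative on 2 of 3 with control siRNA and on 3 of 3 with β-catenin siRNA. The probe of SLC1A2, which was left out of the tests, was well above background on the first FZD8_CRD array without Wnt3a, at -4.62.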

How the results depend on the processing

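Of 5 members tested in the main fit, the number called moved as follows. Apart from the absence of RHBG from the deposited values, the cause was not tested. The range given last is over fits that each left out all arrays of 1 replicate number. β-catenin siRNA without Wnt3a gave 1, against 0 (deposited, no filter, spike-ins), 0 to 1. β-catenin siRNA with Wnt3a gave 1, against 2 (replicate block, probe mean), 0 (deposited, no filter, spike-ins), 0 to 1. Wnt3a in untransfected cells gave 0, against 0 to 1. Wnt3a with FZD8_CRD gave 1, against 2 (probe mean), 0 (compared arrays only, spike-ins), 0 to 3. The FZD8_CRD difference in the Wnt3a change gave 0, against 0 to 2. FZD8_CRD without Wnt3a gave 2, against 1 (deposited), 1 to 3. No kept probe of RHBG is among the deposited values, so RHBG could not be called there. FZD8_CRD with Wnt3a gave 3, against 2 (quantile, normexp, deposited, no filter, probe mean, compared arrays only), 1 (spike-ins), 1 to 2. Control siRNA without Wnt3a gave 1, against 0 (no filter, probe mean, spike-ins), 0 to 1. The probe mean turned the SLC13A3 change with FZD8_CRD and Wnt3a to 0.06 (adjusted p = 0.745). GLUL with FZD8_CRD, without and with Wnt3a, was called in 11 of 11 settings. Of 51 uncalled member changes the sign turned in 65 of 916 settings with no call on either side, and 7 were called in a setting. Single arrays left out and spike-in scaling were chosen after seeing the data.

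OAT, LECT2 and SLC1A2 were too close to background for a tested change. All genes called moved by over 1.5 times as follows, and the range given last is again over fits without all arrays of 1 replicate number. β-catenin siRNA without Wnt3a gave 2590, against 4056 (replicate block), 4271 (compared arrays only), 176 (spike-ins), 488 to 2295. β-catenin siRNA with Wnt3a gave 2608, against 650 (spike-ins), 588 to 2576. Wnt3a in untransfected cells gave 1335, against 2797 (replicate block), 875 (no filter), 2 (compared arrays only), 292 (spike-ins), 17 to 6253. Wnt3a with control siRNA gave 497, against 1035 (replicate block), 275 (no filter), 1307 (compared arrays only), 58 (spike-ins), 4 to 582. Wnt3a with β-catenin siRNA gave 10, against 37 (replicate block), 6 (quantile), 5 (normexp), 0 (spike-ins), 0 to 108. Wnt3a with FZD8_CRD gave 2030, against 3229 (replicate block), 0 (compared arrays only), 246 (spike-ins), 0 to 5234. The siRNA difference in the Wnt3a change gave 4, against 9 (replicate block), 1 (normexp), 7 (probe mean), 43 (compared arrays only), 0 (spike-ins), 0 to 11. The FZD8_CRD difference in the Wnt3a change gave 18, against 148 (replicate block), 11 (normexp), 5 (deposited), 41 (no filter), 0 (compared arrays only), 0 to 2897. FZD8_CRD without Wnt3a gave 10316, against 6317 (compared arrays only), 6191 to 11187. FZD8_CRD with Wnt3a gave 9156, against 2332 (spike-ins), 4101 to 10069. Control siRNA without Wnt3a gave 5527, against 3650 (compared arrays only), 1615 (spike-ins), 267 to 6775. Control siRNA with Wnt3a gave 2184, against 3669 (replicate block), 1 (compared arrays only), 216 (spike-ins), 1 to 1096. Spike-in scaling shifted the median of all genes by -0.40 to 0.30. Of 84 same-numbered pairs, which shared a slide, 80 had deviations correlated over 0.1. With the replicate block SLC13A3 with β-catenin siRNA and Wnt3a was called (-0.42, adjusted p = 0.0301).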
